A study of Schizosaccharomyces pombe with 12 samples.

Results

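In the fission yeast *Schizosaccharomyces pombe*, 8 loci were followed: the genes of the PP1 catalytic subunits Dis2 and Sds21, those of the regulators Sds22 and Sds23, and those of 4 further serine/threonine phosphatases, Pzh1, Ppe1, Ppa2 and Ppb1. They were chosen by systematic ID, not by any measured value, and are 8 of the 6986 loci counted, 6 of them coding for catalytic subunits. The data were RNA-seq counts of poly(A)+ RNA from 4 h+ strains, each of 1 strain number, in log phase at 30°C in YES, a rich yeast extract medium. The strains were wild-type (WT, JS78), *ppn1*Δ (ppn1∆::HygMX), *swd22*Δ (swd22::HygMX) and *dis2*Δ (dis2∆::NatMX), with 3 biological replicates of each, 12 libraries in all, so that a drug resistance cassette is present in every mutant and absent from the wild-type. The genotype label of the *ppn1*Δ libraries is spelled pp1_delta, while their title and source name give *ppn1*∆. The study asked how loss of each subunit of the DPS module (Dis2, Ppn1 and Swd22, which joins the core of the cleavage and polyadenylation factor) alters the transcriptome. For the phosphatase genes, the deletion strains also pose the question whether other members of the family changed at the mRNA level when Dis2 or its partners were missing.

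PP1, PP2A, PP6, the PPZ enzymes and calcineurin belong to one family of metal-dependent phosphatases with a shared catalytic core. The catalytic subunit has little specificity of its own and is directed to its substrates by regulatory subunits, so that 1 enzyme can serve in many complexes. In fission yeast PP1 acts in the exit from mitosis, in polarity, in glucose signalling and in transcription, and Dis2 and Sds21 share its essential role.

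Totals per library ran from 17616688 to 23435936 counts (median 20788283). Counts were scaled between libraries to a common size of 20839261 (normalized counts), and levels of different genes were compared as RPKM, in which the normalized count is divided by the annotated exon length and by the library size. The deleted gene had the lowest counts in its own strain in each case: *ppn1* had between 86 and 150 counts in *ppn1*Δ against 462 to 549 in wild-type, *swd22* had between 10 and 26 in *swd22*Δ against 1407 to 1618, and *dis2* had between 646 and 900 in *dis2*Δ against 11788 to 12259. Changes between strains were tested with the quasi-likelihood test of edgeR, p-values were adjusted by Benjamini and Hochberg's method over all 6110 loci that entered the test, and a change was called at an adjusted p of 0.05 or below. All 8 phosphatase and regulator genes were among the loci tested. The study's stricter cutoffs also require a 2-fold change and a mean normalized count of 100 in either strain. The 3 comparisons with wild-type share the same 3 wild-type libraries, so that a deviation of these libraries enters all of them.

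The background of calls was high. At an adjusted p of 0.05 or below, the share of loci called against wild-type was 49.6% for *ppn1*Δ, 39.8% for *swd22*Δ and 41.3% for *dis2*Δ, while the study's cutoffs were passed by 3.45%, 3.27% and 2.78%, respectively. Of the 8 genes, 5 were called in *ppn1*Δ and 2 in *swd22*Δ. The 3 called in *dis2*Δ included the deleted gene itself. For so few genes the share in *ppn1*Δ is near the background, though above it, and the shares in *swd22*Δ and *dis2*Δ are below it. Only *dis2* in *dis2*Δ passed the study's cutoffs. Leaving it out, the largest change of any of these genes was a log2 fold change of -0.50, that of *ppe1* in *ppn1*Δ. Over the 8 genes, the log2 fold change had a median of -0.02 in *ppn1*Δ. For *swd22*Δ it was 0.03 and for *dis2*Δ -0.06, or -0.02 without the deleted *dis2*. The medians over all loci tested were 0.01, -0.00 and 0.00 for *ppn1*Δ, *swd22*Δ and *dis2*Δ. Regardless of sign, the median size of change over all loci was 0.24, 0.19 and 0.20 on the log2 scale. The called changes of *dis2*, *sds21*, *ppa2* and *pzh1* in *ppn1*Δ were smaller than this median. Those of *ppe1* in each mutant and of *sds23* in *swd22*Δ and *dis2*Δ were larger.

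**Figure D1:**
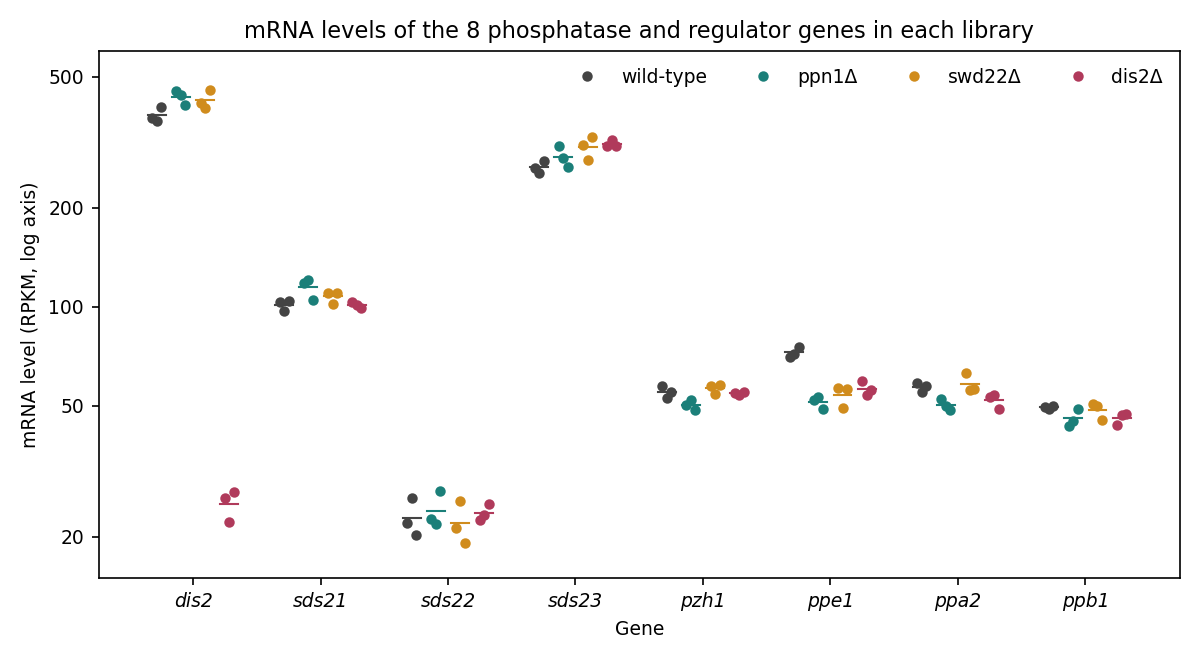
Levels of the 8 mRNAs (RPKM, log axis) in each of the 12 libraries, coloured by strain, with a short line at the mean of the 3 libraries. *dis2* lies near 382 RPKM in wild-type and near 25.3 RPKM in *dis2*Δ, and the *ppe1* points of all mutant libraries lie below the wild-type points, which are between 70.5 and 75.4 RPKM.

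In wild-type cells the mRNA of Dis2, the major PP1 catalytic subunit, was the most abundant of the 8. Per exon length it was followed by *sds23*, *sds21*, *ppe1*, *ppa2*, *pzh1*, *ppb1* and *sds22*, with mean levels, from *dis2* to *sds22*, of 381.6, 265.1, 101.5, 72.7, 57.0, 55.2, 49.5 and 22.8 RPKM. The ranges of the 3 libraries did not overlap between neighbors in this order, except for *ppa2* and *pzh1*, whose levels differed 1.03-fold. For scale, the median over the 5107 coding loci in wild-type was 31.9 RPKM, the lower quartile 13.5 and the upper quartile 82.9, so *dis2*, *sds23* and *sds21* lay above the upper quartile and *sds22* alone below the median. Among coding loci ranked by level, *dis2* stood between places 364 and 388 in the wild-type libraries, *sds23* between 489 and 504, *sds21* between 1075 and 1102, and *sds22* between 2919 and 3222.

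The middle of this order depends on the length used. The annotated transcripts of *ppe1* and *ppa2* are mostly untranslated: 74.2% of the 3559 nucleotides of *ppe1* and 69.7% of the 3202 nucleotides of *ppa2*, longer untranslated parts than in 98.6% and 97.7% of coding loci, whose median is 380 nucleotides. When RPKM was computed with the coding length instead, *ppe1* (281.7 ± 9.67 RPKM, SD, n = 3) and *ppa2* (188.2 ± 5.83) stood above *sds21* (154.0 ± 5.57) in wild-type. *dis2* remained first with 596.5 ± 31.9, *sds23* second with 315.4 ± 13.2, and *pzh1*, *ppb1* and *sds22* the last. Reads that fell on the long 3' untranslated regions are part of the *ppe1* and *ppa2* counts on either scale.

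The order was much the same in *ppn1*Δ and *swd22*Δ per exon length. *dis2*, *sds23* and *sds21* were the first 3 and *sds22* the last, without overlap with their neighbors. *ppe1*, in wild-type above *ppa2*, overlapped with *ppa2* in *ppn1*Δ (51.4 against 50.4 RPKM) and lay sixth in *swd22*Δ (54.0 RPKM), where it overlapped with *pzh1* and with *ppb1*. In *dis2*Δ *sds23* was the first with 312.1 RPKM and *sds21* the second with 101.3 RPKM, 3.08-fold lower.

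Dis2 and Sds21 are the only PP1 catalytic subunits among these genes, and their proteins are close relatives. Aligned over 321 positions, Dis2 (327 amino acids) and Sds21 (322 amino acids) were identical at 252, or 78.5%. The PPZ-type phosphatase Pzh1 was the nearest of the others, with 62.3% identity to Dis2 and 62.1% to Sds21. The 8 mRNAs share no word of 51 bases, the length of the reads, with each other. Of all 1488 words of *dis2*, 1440 were found in the genome sequence, and of all 1421 of *sds21*, 1277, since words across exon junctions are largely absent there. Each word found in the genome occurred there once. In the annotation of build ASM294v3, *dis2* (SPBC776.02c) lies on the reverse strand of chromosome II at 3173165 to 3175098 and has 2 exons, and *sds21* (SPCC31H12.05c) lies on the reverse strand of chromosome III at 628570 to 630519 and has 4. All positions given are of this build.

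*dis2* had normalized counts of 11990, 11733 and 12973 in the wild-type libraries. The *ppn1*Δ libraries had 14509, 14103 and 13114, the *swd22*Δ libraries 13328, 12851 and 14659, and the *dis2*Δ libraries 841, 713 and 875. The lowest *ppn1*Δ library exceeded the highest wild-type library, while *swd22*Δ and wild-type overlapped. In *ppn1*Δ *dis2* rose by a log2 fold change of 0.19 (SE 0.075, adjusted p = 0.048), that is to 113.7% of the wild-type mean. The call was just within the threshold and was lost with RLE factors for scaling (adjusted p = 0.067). It was also lost when wild-type replicate 1 or 2, *ppn1*Δ replicate 1 or 2, *swd22*Δ replicate 1 or *dis2*Δ replicate 1 was left out (adjusted p between 0.059 and 0.15). In *swd22*Δ the difference was of like size, 0.15 (SE 0.075, 95% interval -0.00 to 0.31, adjusted p = 0.11), and did not pass. Scaling by library totals alone gave a call there (0.17, adjusted p = 0.047). The comparison of *swd22*Δ with *ppn1*Δ gave -0.03 (adjusted p = 0.83).

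Counts that remained at *dis2* in the strain without it came to 6.62% of the wild-type mean, a log2 fold change of -3.92 (SE 0.086, adjusted p = 1.4e-15), or 15.1-fold lower. The count table gives 1 value per locus and holds no positions, so where in the locus these reads lay was not tested here. The study states, from its read alignments, that the deleted coding sequences were without reads in their own null strains. The annotated *dis2* transcript is 1538 nucleotides long, of which 984 code for protein and 554, or 36.0%, are 3' untranslated region, with no annotated 5' untranslated region. Long noncoding RNAs annotated on the opposite strand across *dis2* in ASM294v3 are not listed in the count table. The strand setting of the counting is not stated, so sense and antisense reads at the locus cannot be told apart. The residual level was 25.3 ± 2.67 RPKM (SD, n = 3), overlapping with that of *sds22* in the same libraries (23.7 ± 1.37 RPKM).

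The annotated neighbors of *dis2* were examined for the same reason. *hom6*, whose product is homoserine dehydrogenase and whose gene lies 1571 bases away, rose in *dis2*Δ by a log2 fold change of 0.49 (adjusted p = 3.8e-05), with normalized counts of 25776, 24827 and 23497 against 17491, 17170 and 18214 in wild-type. It was not called in *ppn1*Δ (0.09, adjusted p = 0.32) or *swd22*Δ (0.13, adjusted p = 0.16). *rpl29*, a ribosomal protein gene 468 bases from *dis2*, rose by 0.20 in *dis2*Δ (adjusted p = 0.026). The snoRNA gene *snR93*, with a mean of 36.2 normalized counts in wild-type, was not called in any mutant. Whether the cassette at *dis2* had a part in the rise of either neighbor was not tested.

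*sds21*, the paralog of *dis2*, had normalized counts of 3167, 2980 and 3182 in wild-type and 3166, 3110 and 3044 in *dis2*Δ. The ranges overlapped and the means were 3110.0 and 3106.8. The log2 fold change was -0.001 (SE 0.061, adjusted p = 0.99), and its 95% interval, from -0.13 to 0.13, allows a level between 91.4% and 109.1% of wild-type. Across the 20 alternative settings the value stayed between -0.03 and 0.02, and no setting called it. In raw counts per library, *sds21* had 3387, 2819 and 2913 in *dis2*Δ against 3114, 3114 and 2924 in wild-type.

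In *ppn1*Δ, in contrast, *sds21* had 3633, 3702 and 3226 normalized counts, all above the highest wild-type library, and rose by a log2 fold change of 0.18 (SE 0.060, adjusted p = 0.021). The *swd22*Δ libraries, with 3385, 3127 and 3377, overlapped with wild-type and gave 0.08 (SE 0.060, 95% interval -0.04 to 0.21, adjusted p = 0.29). The *ppn1*Δ call was lost without wild-type replicate 2, *ppn1*Δ replicate 1 or *ppn1*Δ replicate 2 (adjusted p of 0.086, 0.079 and 0.094). Compared directly, *sds21* was lower in *dis2*Δ than in *ppn1*Δ by a log2 fold change of -0.18 (adjusted p = 0.033), a call that DESeq2 did not make (adjusted p = 0.063) and that was lost without any 1 of *ppn1*Δ replicates 1 and 2 or of the *dis2*Δ replicates (adjusted p between 0.056 and 0.13). In this comparison 28.7% of loci were called, among them *dis2* and *sds21* of the 8 genes. Between *swd22*Δ and *ppn1*Δ *sds21* was not called (-0.09, adjusted p = 0.38), with 6.32% of loci called between these strains.

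The ratio of *dis2* to *sds21* mRNA, taken per exon length, was 3.76 ± 0.139 (SD, n = 3) in wild-type, with values of 3.62, 3.77 and 3.90 in the 3 libraries. It was 3.78 ± 0.126 in *ppn1*Δ and 3.95 ± 0.193 in *swd22*Δ, whose ranges of 3.64 to 3.89 and 3.77 to 4.15 overlapped with that of wild-type. *dis2* was therefore the more abundant PP1 mRNA by a similar factor in each strain that carries it. Per exon length, *dis2* made up 53.2% ± 0.94 of the summed level of the 6 catalytic subunit mRNAs in wild-type and *sds21* 14.1% ± 0.298. The shares were 58.1% ± 0.639 and 15.4% ± 0.514 in *ppn1*Δ, and 56.6% ± 1.64 and 14.3% ± 0.291 in *swd22*Δ. Both shares would be smaller per coding length, where *ppe1* (281.7 RPKM) and *ppa2* (188.2 RPKM) stood above *sds21* (154.0 RPKM) in wild-type.

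**Figure D2:**
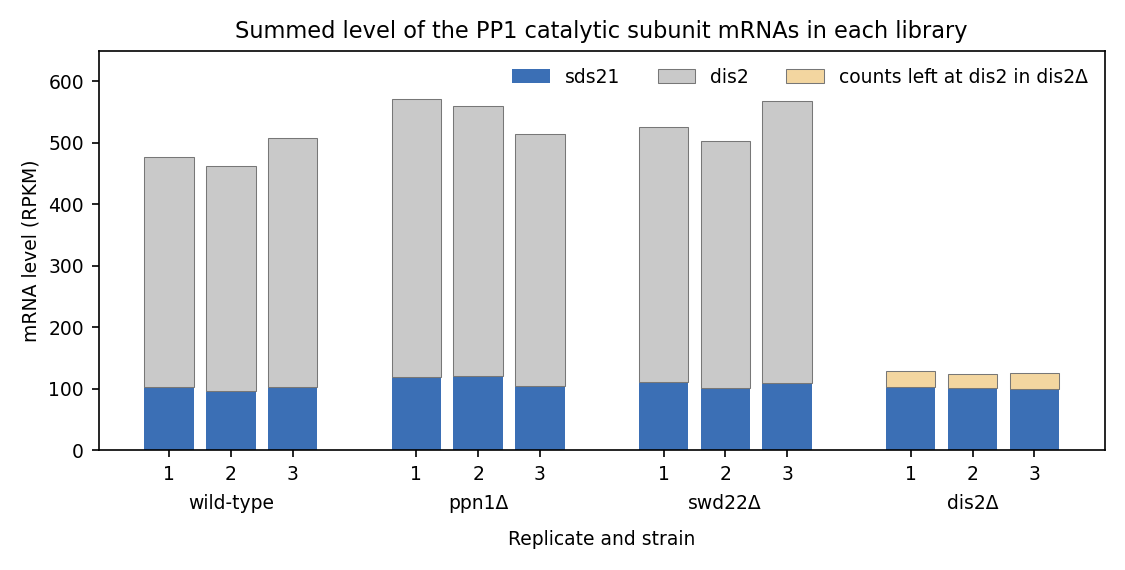
Summed level of the PP1 mRNAs (RPKM) in each library, with *sds21* in blue and *dis2* stacked above it in grey. The pale part of the *dis2*Δ bars is the counts left at the deleted locus, and the *sds21* part of these bars, between 99.3 and 103.3 RPKM, is as high as in wild-type.

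The summed level of the 2 PP1 mRNAs was 483.1 ± 23.2 RPKM in wild-type, with a range of 463.3 to 508.6. It was higher on average in *ppn1*Δ, with 548.8 ± 30.2 RPKM (514.4 to 571.2), and in *swd22*Δ, with 532.2 ± 32.7 RPKM (502.9 to 567.5). All *ppn1*Δ libraries were above the wild-type range, and the *swd22*Δ libraries overlapped with it. In *dis2*Δ the level of *sds21* alone was 21.0% of the wild-type sum, and with the counts left at the deleted locus included the sum was 126.6 ± 2.91 RPKM, or 26.2%. Per exon length, the loss at *dis2* itself came to 356.4 RPKM. On the same scale, the other 5 catalytic subunit mRNAs together amounted to 335.7 ± 8.32 RPKM in wild-type and 310.3 ± 3.95 RPKM in *dis2*Δ. The mean change was -25.4 RPKM, with no library of *dis2*Δ (306.4 to 314.3) as high as the lowest of wild-type (326.2). These amounts depend on the length used, since *ppe1* and *ppa2* weigh more per coding length. No rise of another catalytic subunit mRNA in *dis2*Δ was called: of the 5, *ppe1* fell and *sds21*, *pzh1*, *ppa2* and *ppb1* were not called.

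Sds22 is a leucine-rich repeat protein that binds PP1 and is required for mitosis. Its gene (SPAC4A8.12c, chromosome I, 2573160 to 2574541) had the fewest counts of the 8 in every strain, with raw counts of 597, 756 and 515 in wild-type. The *ppn1*Δ libraries had 683, 533 and 917, the *swd22*Δ libraries 572, 749 and 481, and the *dis2*Δ libraries 667, 585 and 667. The libraries of each strain spread as widely as the strains, with a coefficient of variation of 13.3% in wild-type, against 5.35% for *dis2* and 3.62% for *sds21*. No comparison was called, and the differences from wild-type on the log2 scale were 0.08 (*ppn1*Δ), -0.05 (*swd22*Δ) and 0.05 (*dis2*Δ), each with an SE of 0.12. The intervals reach from 80.8% to 125.7% of wild-type over the 3 mutants, and the SE was larger than those of the other 7 genes, so that changes of a size called for them may go undetected here.

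Sds23 is not a phosphatase but a CBS-domain protein that binds PP2A- and PP6-type phosphatases and inhibits them. Its gene (SPBC646.13, chromosome II, 950777 to 952292) was the second most abundant of the 8 in wild-type and had normalized counts of 8047, 7735 and 8412 there. The *dis2*Δ libraries, with 9347, 9782 and 9353, and the *swd22*Δ libraries, with 9452, 8485 and 9988, were all above the wild-type range. *sds23* rose in *dis2*Δ by a log2 fold change of 0.24 (SE 0.070, adjusted p = 0.012) and in *swd22*Δ by 0.21 (SE 0.070, adjusted p = 0.025). In *ppn1*Δ, with 9357, 8606 and 8088, it was not called (0.11, adjusted p = 0.22), although scaling by library totals alone gave a call (0.18, adjusted p = 0.0048), and no difference between the mutants was called (adjusted p of 0.18 for *dis2*Δ against *ppn1*Δ and 0.42 for *swd22*Δ against *ppn1*Δ). The *dis2*Δ call was lost without *dis2*Δ replicate 2 (adjusted p = 0.061), and that in *swd22*Δ without wild-type replicate 1 or 2, *swd22*Δ replicate 1 or 3, or *dis2*Δ replicate 2 (adjusted p between 0.052 and 0.12).

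**Figure D3:**
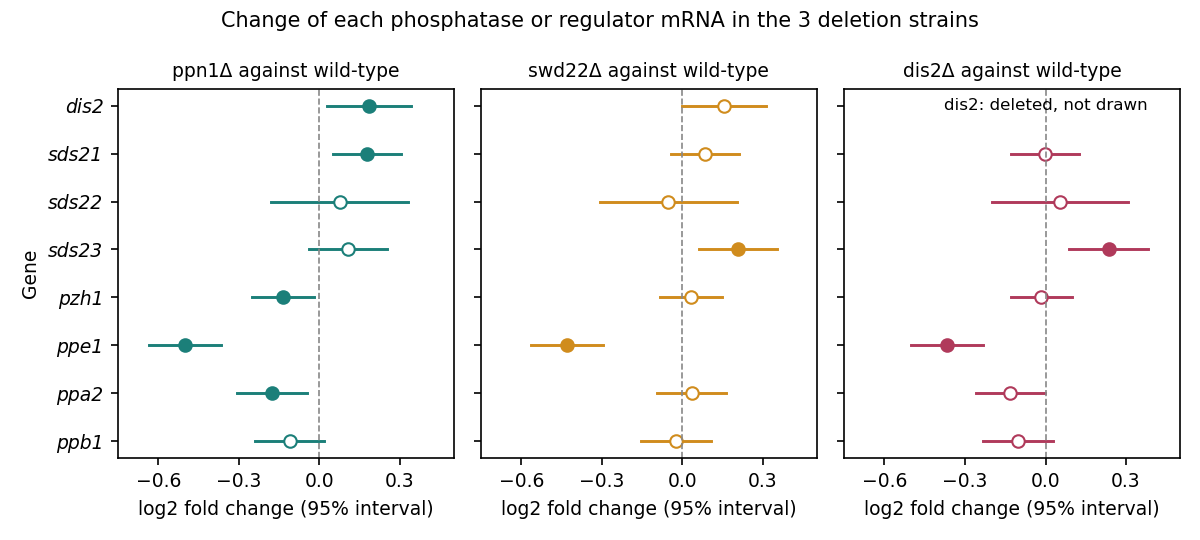
Log2 fold change of each gene against wild-type (points) with its 95% interval (lines) for each deletion strain. Filled points passed an adjusted p of 0.05, open points did not, and the deleted *dis2* (-3.92 in *dis2*Δ) is not drawn. *ppe1* is filled and below 0 in each panel, and *sds21* in *dis2*Δ lies at -0.001.

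Ppe1 is the PP6-type catalytic subunit, related to budding yeast Sit4, and acts in chromosome segregation and cell shape. Its gene (SPCC1739.12, chromosome III, 2053511 to 2057069, 1 exon) was the one whose mRNA was called in all 3 mutants. It had normalized counts of 5229, 5347 and 5592 in wild-type. The *ppn1*Δ libraries had 3855, 3954 and 3633, the *swd22*Δ libraries 4197, 3648 and 4159, and the *dis2*Δ libraries 4404, 3998 and 4130. Each of the 9 mutant libraries was below each wild-type library.

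*ppe1* fell with log2 fold changes of -0.50 for *ppn1*Δ (adjusted p = 7.2e-06), -0.43 for *swd22*Δ (adjusted p = 4.7e-05) and -0.37 for *dis2*Δ (adjusted p = 0.00022), each with an SE of 0.064, that is to 70.8%, 74.2% and 77.5% of wild-type. These calls were kept in all 20 alternative settings at an adjusted p of 0.05, with log2 fold changes between -0.53 and -0.42, between -0.47 and -0.37, and between -0.41 and -0.33, respectively. Changes of this size were not rare, since 22.2% of loci had at least as large a change for *ppn1*Δ, 22.3% for *swd22*Δ and 26.6% for *dis2*Δ. No difference in *ppe1* between the mutants was called (adjusted p of 0.55, 0.13 and 0.55 for *swd22*Δ against *ppn1*Δ, *dis2*Δ against *ppn1*Δ and *dis2*Δ against *swd22*Δ). The 3' end of the annotated *ppe1* transcript overlaps by 27 bases with *ssa2*, a heat shock protein gene on the same strand with far more counts. *ssa2* was not called in *ppn1*Δ (0.04, adjusted p = 0.70) or *dis2*Δ (-0.04, adjusted p = 0.76) and rose in *swd22*Δ (0.36, adjusted p = 0.0041). Whether reads in the shared bases had a part in the *ppe1* counts was not tested. The *ppe1* count also covers an annotated 3' untranslated region of 2534 nucleotides, and whether reads on the coding part fell was not tested.

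**Figure D4:**
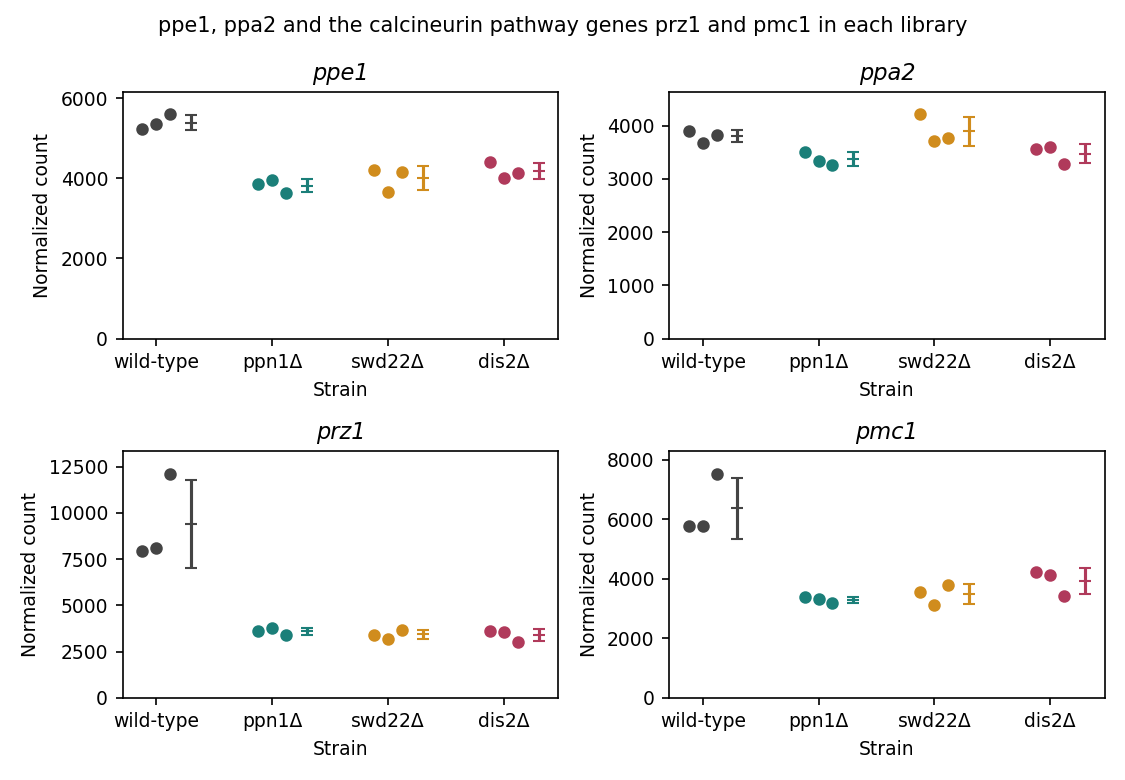
Normalized counts of *ppe1*, *ppa2*, *prz1* and *pmc1* in each library by strain, with the mean and SD of the 3 libraries beside the points and the axis starting at 0. All mutant points of *ppe1*, *prz1* and *pmc1* lie below the lowest wild-type point, and wild-type replicate 3 stands above the other 2 wild-type libraries for *prz1*, with 12115 normalized counts against 7947 and 8073.

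Ppa2 is the major catalytic subunit of PP2A, an enzyme that holds back entry into mitosis. Its gene (SPBC16H5.07c, chromosome II, 2286952 to 2290445) had normalized counts of 3905, 3673 and 3826 in wild-type and 3511, 3329 and 3253 in *ppn1*Δ, where it fell by a log2 fold change of -0.18 (SE 0.061, adjusted p = 0.024). The call was lost when library totals alone were used for scaling (-0.10, adjusted p = 0.13) and without wild-type replicate 1 or 3 or *ppn1*Δ replicate 2 or 3 (adjusted p between 0.060 and 0.13). It was not called in *dis2*Δ, whose 3557, 3590 and 3269 were all below the wild-type range (-0.13, adjusted p = 0.099), nor in *swd22*Δ with 4209, 3714 and 3759 (0.03, adjusted p = 0.68). Compared directly, *ppa2* was higher in *swd22*Δ than in *ppn1*Δ by 0.21 at an adjusted p of 0.050, and this call was lost in 12 of 16 alternatives, all but 2 of them the omission of 1 library (adjusted p up to 0.23).

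The *ppa2* count carries a further limit. The annotated transcript overlaps over 1232 bases with *rip1*, which codes for the Rieske subunit of respiratory complex III and lies on the opposite strand. *rip1* had 13306, 12811 and 14064 normalized counts in wild-type and between 7147 and 9490 in the 9 mutant libraries, and fell by log2 fold changes of -0.61 (*ppn1*Δ), -0.76 (*swd22*Δ) and -0.57 (*dis2*Δ) (adjusted p of 5.4e-06, 6.9e-07 and 1.7e-05). Both *rip1* and *ppa2* had lower means than wild-type in *ppn1*Δ and *dis2*Δ, while in *swd22*Δ *rip1* fell and *ppa2* was not called. Whether *rip1* reads had a part in the *ppa2* counts was not tested. Without the strand setting, reads of the 2 genes in the shared stretch cannot be told apart.

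Pzh1, a PPZ-type phosphatase known for its role in salt tolerance, was called in 1 mutant only. Its gene (SPAC57A7.08, chromosome I, 1527565 to 1529772, 1 exon) had normalized counts of 2650, 2432 and 2537 in wild-type and 2507, 2490 and 2536 in *dis2*Δ, a log2 fold change of -0.02 (SE 0.054, 95% interval -0.13 to 0.10, adjusted p = 0.84). It was not called in *swd22*Δ either, with 2642, 2493 and 2658 (0.03, adjusted p = 0.66). In *ppn1*Δ, with 2309, 2403 and 2230, it fell by -0.13 (SE 0.054, adjusted p = 0.048), but 16 of 20 alternatives did not call it, DESeq2 among them (adjusted p = 0.079), and leaving out 1 library gave an adjusted p as high as 0.27, without wild-type replicate 1.

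Ppb1 is the catalytic subunit of calcineurin, the phosphatase activated by calcium and calmodulin. Its gene (SPBP4H10.04, chromosome II, 2873922 to 2876109) had normalized counts of 2056, 2028 and 2070 in wild-type. The *ppn1*Δ libraries had 1800, 1869 and 2026, the *swd22*Δ libraries 2092, 2076 and 1883, and the *dis2*Δ libraries 1817, 1947 and 1963. The wild-type libraries lay unusually close together, with a coefficient of variation of 1.04%, and all *ppn1*Δ and *dis2*Δ libraries were below them. No comparison was called, with log2 fold changes of -0.11 (adjusted p = 0.14), -0.02 (adjusted p = 0.78) and -0.10 (adjusted p = 0.19) for the *ppn1*, *swd22* and *dis2* deletions, and intervals that reach down to 84.6% of wild-type.

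Between *dis2*Δ and *swd22*Δ, where 18.6% of loci were called, only *dis2* was called among the 8 genes, and no other member differed by more than 0.17 on the log2 scale. Apart from *dis2* itself, the mutants were therefore set apart by *sds21* (*dis2*Δ against *ppn1*Δ) and *ppa2* (*swd22*Δ against *ppn1*Δ) alone among the calls, and both calls were lost in some alternatives.

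Genes of the wider phosphatase network were described by lists of symbols. Of 6 PP1 partners and regulators found in the table (*ppn1*, *swd22*, *tea4*, *klp5*, *klp6* and *spc7*), 3 fell in *ppn1*Δ. In *swd22*Δ 3 fell and 1 rose, and in *dis2*Δ 1 fell, with the deleted genes *ppn1* and *swd22* counted in their own strains. Over all loci, 49.6%, 39.8% and 41.3% were called in these comparisons, so the counts of this list and of those that follow are to be read against a background at which a large share of any list is called. The median log2 fold changes were -0.28, -0.27 and -0.11, against 0.01, -0.00 and 0.00 over all loci tested. The medians in *ppn1*Δ and *swd22*Δ include the deleted gene of the strain. Without it, the middle value of the list was that of *swd22* in *ppn1*Δ (-0.23) and that of *spc7* in *swd22*Δ (-0.105). *klp5* and *klp6*, kinesins that bring PP1 to the kinetochore, fell in *ppn1*Δ (-0.45 and -0.33, adjusted p of 1e-05 and 0.0032) and in *swd22*Δ (-0.43 and -0.45, adjusted p of 2.2e-05 and 0.00034), and *klp5* alone was called in *dis2*Δ (-0.20, adjusted p = 0.010). The only rise was that of *tea4*, a polarity factor that binds Dis2, in *swd22*Δ (0.15, adjusted p = 0.031). *spc7*, a kinetochore scaffold, was not called in any mutant.

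Of 13 PP2A subunits and regulators, 6 fell in *ppn1*Δ. In *swd22*Δ 5 fell and 1 rose, and in *dis2*Δ 7 fell, beside a background of 49.6%, 39.8% and 41.3% of all loci. The medians were -0.11, -0.01 and -0.20. The genes past 1.5-fold were *par2*, a B56-type regulatory subunit of PP2A, and *csc1*, whose product is part of the PP2A complex that inhibits the septation initiation network. *par2* had 2182, 2014 and 1979 normalized counts in wild-type, 1203, 1238 and 1351 where *ppn1* was deleted and 1242, 1208 and 1226 where *dis2* was deleted, and fell by log2 fold changes of -0.70 (adjusted p = 2e-06) and -0.75 (adjusted p = 1.5e-06). *csc1* fell by -0.62 in *ppn1*Δ (adjusted p = 6.5e-06), with 1317, 1284 and 1237 against 1912, 1888 and 2102. Both genes also fell in the remaining strains by less than 1.5-fold: *par2* by -0.49 in *swd22*Δ (adjusted p = 0.00011), and *csc1* by -0.42 in *swd22*Δ (adjusted p = 0.0004) and by -0.46 in *dis2*Δ (adjusted p = 0.00018). The scaffold gene *paa1* fell in *ppn1*Δ (-0.21, adjusted p = 0.0063) and the B55 subunit gene *pab1* was not called in any mutant. *ppa1*, the gene of the minor PP2A catalytic subunit, was not called either, with log2 fold changes between -0.01 and 0.17.

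The 6 genes of calcineurin signalling held the largest changes of any of these lists, apart from the deleted genes. For *ppn1*Δ, 3 fell and 2 rose, for *swd22*Δ 3 fell and 1 rose, and for *dis2*Δ 4 fell, beside 49.6%, 39.8% and 41.3% of all loci called. The medians were -0.31, -0.23 and -0.24. *prz1*, the transcription factor that calcineurin dephosphorylates, had 7947, 8073 and 12115 normalized counts in wild-type. The *ppn1*Δ libraries had 3592, 3799 and 3398, the *swd22*Δ libraries 3417, 3187 and 3691, and the *dis2*Δ libraries 3609, 3579 and 3029. It fell by log2 fold changes of -1.38, -1.45 and -1.46 (adjusted p of 1.4e-07, 1.3e-07 and 1.1e-07). Wild-type replicate 3 stood above the other wild-type libraries, and without it the values were -1.16, -1.22 and -1.23 (adjusted p of 2.9e-08, 2.1e-08 and 1.7e-08).

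*pmc1*, which codes for a vacuolar calcium pump under the control of Prz1, fell as well. It had 5784, 5779 and 7535 normalized counts in wild-type. The ranges were lower in the mutants: the *ppn1*Δ libraries held 3190 to 3384, the *swd22*Δ libraries 3123 to 3792 and the *dis2*Δ libraries 3437 to 4240, with log2 fold changes of -0.95 (adjusted p = 9.3e-07), -0.86 (adjusted p = 3.6e-06) and -0.69 (adjusted p = 3.7e-05). Without wild-type replicate 3 these were -0.81, -0.73 and -0.55. *pmr1*, a calcium and manganese pump of the secretory pathway, fell in all 3 mutants too (-0.51, -0.37 and -0.24). The genes of the enzyme itself moved less: *cnb1*, for the regulatory subunit of calcineurin, and *cam1*, for calmodulin, rose in *ppn1*Δ (0.22 and 0.29), *cam1* rose in *swd22*Δ (0.24), and *ppb1* was not called in any mutant.

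Of 4 other genes of the family or its subunits, *pph3*, a PP4-type catalytic subunit, rose in *ppn1*Δ (0.21, adjusted p = 0.0088) and *swd22*Δ (0.25, adjusted p = 0.0032). *ekc1*, for a regulatory subunit that binds Ppe1, fell in *ppn1*Δ (-0.27, adjusted p = 0.0018) and *dis2*Δ (-0.19, adjusted p = 0.019), 2 of the strains in which *ppe1* fell, and was not called in *swd22*Δ (-0.12, adjusted p = 0.14). *psy2*, for a PP4 regulatory subunit, fell in *dis2*Δ (-0.23, adjusted p = 0.028), and *hal3*, for the relative of a budding yeast inhibitor of PPZ phosphatases, was not called. Of 4 PPM phosphatases, which share the chemistry but not the fold, *ptc1* fell in all 3 mutants (-0.27, -0.39 and -0.40), *ptc3* fell in *ppn1*Δ (-0.21) and *ptc2* in *swd22*Δ (-0.20). The median log2 fold changes of the last list were -0.15, -0.12 and -0.14.

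The genes most like each member in their pattern were taken from 4734 coding loci, by Pearson's r of log2 normalized counts over the 12 libraries, or over the 9 libraries that carry *dis2* for *dis2*. These libraries share strains and scaling, and the values are given as a description only. For *dis2* the nearest were SPAC8F11.08c (r = 0.981), *act1* (r = 0.981) and *erg6* (r = 0.980), and for *sds21* they were *mtr10* (r = 0.940), *gad8* (r = 0.933) and *atg20* (r = 0.929). For *ppe1* they were *tvp15* (r = 0.978), *pof4* (r = 0.977) and *gwt1* (r = 0.976), and for *ppb1*, with the weakest likeness of the 8, *wwm1* (r = 0.840). No member was among the 3 nearest loci of another. The r of *dis2* with *sds21* was 0.847 over 9 libraries, and the r of *pzh1* with *ppa2* was 0.705 over 12.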

How the data were processed

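Poly(A)+ RNA of 12 cultures was sequenced from stranded libraries as paired-end reads of 51 bases. The authors mapped the reads with HISAT2 2.1.0 and counted them with HTSeq 0.10.0 on PomBase exons of build ASM294v2, and the deposited values are raw counts per locus, not normalized. Default settings were reported for mapping, and the strand setting of the counting is not given in the sources used here. The table had 6987 entries for 6986 IDs (2 entries of 1 ID were summed), and 0 per-sample columns were left out.

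The test was that of edgeR 4.0.16 under R 4.3.3: loci were filtered with filterByExpr, scaled by TMM and fitted by quasi-likelihood over all 12 libraries with 1 mean per strain, which left 6110 loci. DESeq2 1.42.0, other scalings and filters, a replicate block and the omission of each library were alternatives. Scripts were tested on simulated data. Positions, lengths and names are from ASM294v3 (6637 IDs matched, 349 did not), while the counts were made on ASM294v2, and nothing was converted. Protein identities were computed with Biopython 1.88, and tables and figures with Python 3.11.15, pandas 2.3.3, numpy 2.4.6 and matplotlib 3.10.9. Replicates differed by more than counting noise in every pair (chi-square of 5.38 to 23.6 per degree of freedom). Replicate numbers did not pair the samples. All 8 genes were named with every value. From the lists of related genes, those past an adjusted p of 0.05 and 1.5-fold were named in full and others by example. The genes and lists were chosen with earlier results of these data known. Of the list symbols, *ypi1*, *glc9*, *ptc5* and *ptc6* matched no locus, and *ppt1* was left out because it names another enzyme in this annotation. Intervals cover the fitted error at 95%.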

Additional observations from a re-analysis of the deposited data

How the results depend on the processing

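Over 48 results (8 genes in 6 comparisons, 14 of them called) and 864 alternative values, 803 kept their direction and side of the threshold, or were uncalled in both, 56 lost a call, 5 gained one and 0 called values changed sign. The calls of *ppe1* in the 3 mutants and of *dis2* in *dis2*Δ were kept at an adjusted p of 0.05 in every alternative run, while 8 called results lost the call in at least 1. The number of the 8 genes called in *ppn1*Δ against wild-type, 5, became 3 with RLE factors, 1 at an adjusted p of 0.01, 0 with the study's cutoffs, and between 2 and 5 when 1 library was left out. In *swd22*Δ, 2 became 3 with library totals, 1 at an adjusted p of 0.01, 0 with the study's cutoffs, and between 1 and 2 with 1 library left out. In *dis2*Δ, 3 became 2 at an adjusted p of 0.01, 1 with the study's cutoffs, and between 2 and 3 with 1 library left out. For *swd22*Δ against *ppn1*Δ, 1 became 0 with RLE factors or library totals, and between 0 and 2 with 1 library left out. For *dis2*Δ against *ppn1*Δ, 2 became 1 with DESeq2 and with RLE factors, and between 1 and 2 with 1 library left out. For *dis2*Δ against *swd22*Δ, 1 became 2 with library totals and between 1 and 2 with 1 library left out. Scaling by library totals gained the calls of *sds23* in *ppn1*Δ (0.18, adjusted p = 0.0048) and of *dis2* in *swd22*Δ (0.17, adjusted p = 0.047). The cause of these shifts was not tested.

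The *dis2* to *sds21* ratio in wild-type, 3.76, was 3.87 per coding length, 3.93 with no length correction and between 3.69 and 3.83 with 1 wild-type library left out. The PP1 sum in *dis2*Δ, 26.2% of wild-type, was 25.5% with no length correction, between 25.7% and 26.9% with 1 library left out, and 21.0% without the counts left at *dis2*, an alternative chosen after seeing the data.

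With replicate number as a replicate block, the genes called against wild-type numbered 4 (*ppn1*Δ), 2 (*swd22*Δ) and 3 (*dis2*Δ), and 1, 2 and 1 between the mutants. The lost call was that of *pzh1* in *ppn1*Δ (-0.13, adjusted p = 0.061). Deviations of same-numbered libraries correlated between -0.31 and 0.26 and those of other numbers between -0.38 and 0.45, and 2 of 12 libraries were closest to their own number, so the numbers did not pair the libraries.

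The depth and spread leave *sds22*, the gene with the fewest counts in wild-type, with an SE of 0.12 on the log2 scale. Each strain is 1 isolate of 1 genotype, and mRNA levels say nothing of protein. Whether fewer cells held an mRNA or each cell held less of it cannot be told apart in cultures. Counts were scaled to a common library size, so a shift of all mRNA per cell would not be seen.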
